A study of Mus musculus with 18 samples.

Results

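A set of 10 genes that mark tissue macrophages were followed through RNA sequencing of mouse prostate: C1qa, C1qb, C1qc, Csf1r, Adgre1, Mrc1, Cd68, Lyz2, Cd163 and Mertk. They are 10 of the 55469 genes listed in the tables and were chosen by name as known macrophage markers, with earlier results of these data known. All 10 passed the filter on low values in every comparison. The tissue was the ventral and lateral prostate of male, littermate-matched mice on a background that the labels spell C56NL/6N, and total RNA was sequenced. There were 6 groups of 3 mice with 1 library each: ELAC2+/+ (WT), KO and A537T, each at 10 and at 30 weeks of age. In KO mice both Elac2 alleles lack exon 8 in cells where the Pb promoter drives Cre, which is prostate epithelium, so macrophages of the KO prostate keep an intact gene. A537T mice carry the Ala537Thr change of Elac2 on both alleles in every cell, macrophages included. Elac2 encodes the enzyme that removes the 3′ trailers of tRNA precursors, and the study compared each mutant line with WT at each age. None of these 18 mice carried the TRAMP transgene.

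Tissue macrophages are phagocytes that clear dead cells and debris, sense infection and secrete mediators, and the prostate holds them mainly in its stroma and around the glands. They depend on signalling through the receptor encoded by Csf1r. C1qa, C1qb and C1qc encode the 3 chains of complement C1q, which binds to immune complexes and dying cells and starts the classical complement pathway. Lyz2 encodes lysozyme, which cuts bacterial cell walls, and Cd68 a glycoprotein of endosomes and lysosomes. Adgre1 encodes the F4/80 surface antigen, Mrc1 the mannose receptor CD206 and Cd163 the scavenger receptor for complexes of haemoglobin and haptoglobin. Mertk encodes a receptor kinase through which apoptotic cells are engulfed. Lyz2, Cd68 and Mertk are also used by other cells, Mertk by epithelia among them.

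The C1q genes form a cluster on the minus strand of mouse chromosome 4 (GRCm38, GENCODE vM21): C1qb at chr4:136880129-136886187, C1qc at chr4:136889804-136893065 and C1qa at chr4:136895917-136898803. The cluster spans 18675 bases, with gaps of 3616 and 2851 bases between the genes. Lyz2 lies at chr10:117277331-117282321 on the minus strand, next to its paralogue Lyz1 at chr10:117287797-117292868. Promoter windows of 300 bases, from 250 before to 50 after the start of transcription, were taken from RefSeq (GRCm38.p6) for 7 of the 10 genes. C1qa, Csf1r and Adgre1 were not matched. The letters GAGGAA, the core bound by PU.1 and other ETS factors, occurred on either strand in the windows of 4 of 7 genes (C1qb, C1qc, Mrc1 and Cd68) and in 28.3% of all 32851 windows. The C/EBP letters TTGCNNAA were in the Cd68 window only and in 10.8% of all windows, and the AP-1 letters TGANTCA likewise in the Cd68 window only and in 7.81% of all windows. The stretches around the GAGGAA matches of the neighbouring genes C1qb and C1qc are shown because these genes moved together across the libraries. Both read 5′ to 3′ along the minus strand, and capitals mark GAGGAA or its reverse complement.
C1qb, chr4:136886201-136886300: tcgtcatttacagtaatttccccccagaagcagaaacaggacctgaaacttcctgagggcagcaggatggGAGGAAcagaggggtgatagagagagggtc
C1qc, chr4:136893066-136893164: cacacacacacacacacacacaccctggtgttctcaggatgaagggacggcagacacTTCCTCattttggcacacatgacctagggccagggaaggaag
A match describes these letters only and is no evidence of binding.

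Sequencing depth was 6569642 to 11225281 reads per library (median 8586877), and several libraries held RNA of neighbouring tissues. At 30 weeks the summed level of 9 seminal vesicle genes was 63200 to 91700 CPM (reads of a gene per 1000000 reads of its library) in KO libraries 4AF and 6AF and A537T libraries 7AF and 9AF, but at most 3.49 in the WT libraries, KO library 5AF and A537T library 8AF. At the younger age WT libraries had 7.83 to 45500, KO libraries 65600 to 103000 and A537T libraries 374 to 1910. Skeletal muscle RNA (20 genes) was also found mainly at 10 weeks, at 16900 to 58800 CPM in WT, 274 to 9400 in KO and 5840 to 18100 in A537T, against 99.1 to 391 in all libraries of 30 weeks. Adipocyte genes at 10 weeks summed to 1340 to 2160 CPM in WT, 209 to 652 in KO and 971 to 1500 in A537T. Genes of ventral and lateral prostate secretion at that age summed to 36600 to 133000, 4340 to 38100 and 78000 to 103000 in the same order. Elac2 itself had 115 ± 4.09 normalised counts (reads divided by the size factor of the library; SD, n = 3) in KO and 144 ± 21.1 in WT at 10 weeks, and 124 ± 26.5 and 166 ± 24.7 at 30 weeks. Neither difference passed an adjusted p under 0.05 in limma (0.325 and 0.478), and the deletion removes 1 exon in epithelium only. Markers of prostate luminal epithelium (7 genes) summed to 1100 to 2160 CPM in all 18 libraries.

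Compared per length, Lyz2 was the highest of the macrophage genes, with a mean of 37.6 RPKM (CPM per kilobase of exon) over the 18 libraries (range 14 to 88.2). The C1q chains followed, C1qa at 20.1, C1qb at 14.9 and C1qc at 8.54, and Mertk stood beside C1qc at 8.54. The surface receptors were lower, with Csf1r at 4.92, Mrc1 at 4.79, Adgre1 at 3.10 and Cd163 at 1.89, and Cd68 was at 3.09. The coefficient of variation over the libraries was 21.3% for Mertk, the lowest of the 10, and 59.2% for Adgre1, the highest. A537T at 30 weeks had the highest group mean of 8 genes. The exceptions were Cd163, highest in A537T at 10 weeks, and Mertk, highest in WT at 30 weeks. When the 6 groups were put in order of their mean CPM, the gap between neighbouring groups exceeded the larger of their SDs in only 6 of 50 pairs. For Lyz2 the order ran from A537T at 30 weeks (79.3 ± 32.9 CPM, SD, n = 3) through KO at 30 weeks (59.8 ± 39.5), A537T at 10 weeks (49.2 ± 10.2), WT at 10 weeks (42.0 ± 4.84) and KO at 10 weeks (37.6 ± 2.47) to WT at 30 weeks (29.3 ± 9.77), and no neighbouring pair differed beyond its spread. For C1qc the WT group of 30 weeks (10.5 ± 1.46) lay apart from the next group, KO at 10 weeks (14.8 ± 0.941). Cd163 was at 17.6 ± 1.70 in A537T at 10 weeks, apart from WT at that age (11.3 ± 4.09).

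**Figure D1:**
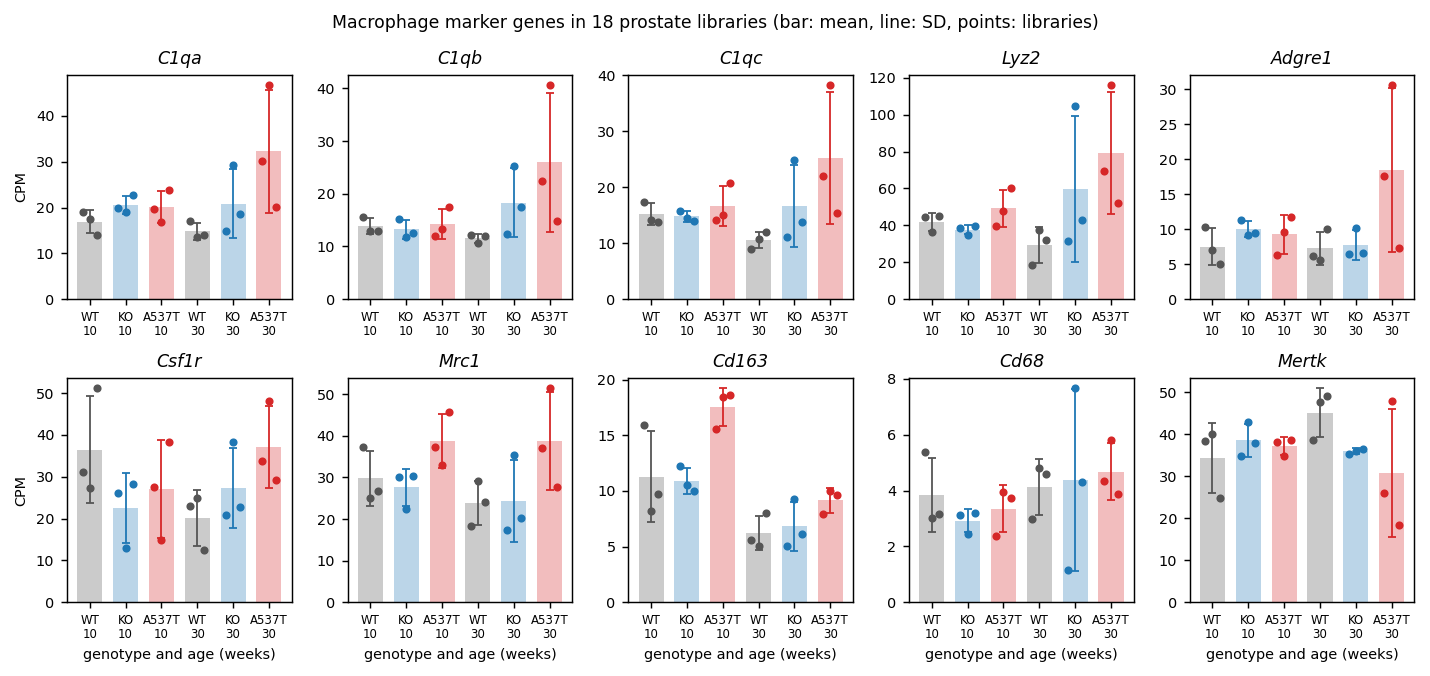
CPM (y axis, linear, from 0) of the 10 macrophage genes in each of the 6 groups; bars are means, vertical lines SDs and points the 3 libraries. The A537T libraries of 30 weeks reach 116 for Lyz2 and 46.7 for C1qa, with a wide spread, and Cd163 is highest in A537T at 10 weeks.

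The clearest difference between genotypes was in the oldest mutants. In A537T at 30 weeks 9 of the 10 macrophage genes had a higher mean log2 level than in WT, and their median log2 fold change was 0.923, beside -0.0052 over all 14789 genes tested. None of the 10 passed an adjusted p under 0.05 in limma (smallest adjusted p = 0.253, largest 0.815), and 0% of all genes did. At an unadjusted p under 0.05 there were 8 of 10 higher and 0 lower, where 7.35% of all genes were higher and 6.28% lower. In 5 of 10 every A537T library lay above every WT library, as 9.18% of all genes did, and 9.4% lay below. These shares describe a list chosen by name with earlier results of these data known. Its genes are markers of the same cell type, so they are not independent of each other.

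C1qa had 265, 394 and 187 normalised counts in A537T libraries 7AF, 8AF and 9AF and 152, 127 and 124 in WT libraries 1AF, 2AF and 3AF. C1qb had 197, 343 and 138 against 107, 98.6 and 106, and C1qc 193, 323 and 143 against 79.4, 99.8 and 105. All 3 chains of C1q were thus higher in every A537T library than in any WT library, and for each the order of the A537T libraries was 8AF, 7AF, 9AF. The fold changes were close to each other, at 2.01 for C1qa (log2 1.01, SE 0.264), 2.02 for C1qb (log2 1.01, SE 0.308) and 2.19 for C1qc (log2 1.13, SE 0.295), with adjusted p = 0.272, 0.292 and 0.272 from limma. DESeq2 on the recovered reads gave the C1q chains adjusted p = 0.0164, 0.0386 and 0.0153 and called 4 of the 10 genes (Lyz2 is the other), where it called 3.19% of all genes in either direction. edgeR called 0 of 14789 genes, with 2167 at an unadjusted p under 0.05.

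Lyz2 had 611, 980 and 489 normalised counts in 7AF, 8AF and 9AF and 163, 348 and 282 in WT. It showed the largest difference of the 10 genes, 2.63-fold (log2 1.39, SE 0.341, adjusted p = 0.253 from limma and 0.00303 from DESeq2). Its paralogue Lyz1, whose reads could be split with Lyz2 in the counting, stood at 64.3, 204 and 32.9 against 9.62, 19.5 and 15.8, a 4.98-fold difference (log2 2.32, SE 0.641, adjusted p = 0.273 from limma). On average Lyz1 had 101 normalised counts in these A537T libraries where Lyz2 had 693.

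Among the receptors, Csf1r had 296, 406 and 273 normalised counts in A537T and 209, 239 and 114 in WT, 1.79-fold (log2 0.84, SE 0.295, adjusted p = 0.314 from limma), again with every A537T library above every WT library. Adgre1 had 155, 258 and 67.9 against 53.7, 52.8 and 88.1. The lowest A537T library thus lay below the highest WT library, and its 2.2-fold difference had a wide error (SE 0.472 on the log2 scale, adjusted p = 0.364 from limma). Mrc1 had 325, 434 and 260 against 164, 272 and 213 (1.57-fold), and Cd163 69.3, 84.8 and 89.8 against 49.7, 47.0 and 70.3 (1.47-fold). Both overlapped by a narrow margin. Cd68, the lysosomal marker, had 38.2, 49.2 and 36.1 against 26.5, 44.7 and 40.6 (1.12-fold, log2 0.16, SE 0.277).

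Mertk was the only macrophage gene with a lower mean in A537T at 30 weeks. It had 227, 405 and 173 normalised counts in 7AF, 8AF and 9AF and 342, 445 and 434 in WT, 0.623-fold (log2 -0.68, SE 0.3, adjusted p = 0.374 from limma). The libraries with seminal vesicle RNA, 7AF and 9AF, lay below every WT library, and 8AF was within the WT range. Without 8AF the log2 fold change was -1.03 with adjusted p = 0.0222 from limma, the only one of the 10 genes to pass in that fit, where 8.27% of all genes passed in either direction. For 8AF alone, without 7AF and 9AF, it was 0.0011. Among the KO libraries of the same age the order of Mertk depended on the measure. The library without seminal vesicle RNA, 5AF, was lowest in normalised counts (297 against 336 and 347). In CPM it lay between the others, at 36.1 against 35.3 in 4AF and 36.6 in 6AF. The part of seminal vesicle RNA in these values was not tested.

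**Figure D2:**
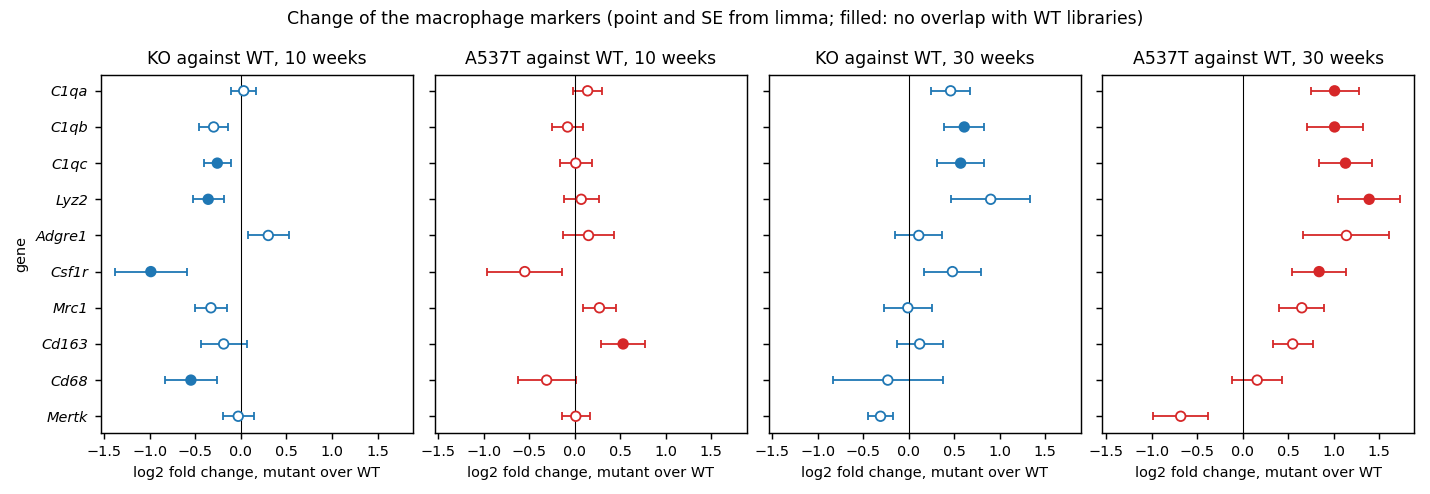
Log2 fold change of mutant over WT (x axis) for each of the 10 macrophage genes (y axis) in the 4 comparisons; points and horizontal lines are estimates and SEs from limma, filled where the mutant and WT libraries do not overlap. In A537T at 30 weeks the C1q chains, Lyz2 and Csf1r are filled and to the right of 0, and Mertk is at -0.68.

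The C1q genes and Lyz2 were highest in the A537T library without seminal vesicle RNA. The comparison of 8AF alone with WT, in which 1 library stands for A537T, gave a median log2 fold change of 1.37 for the 10 genes, with 1.77 for C1qc and 1.96 for Lyz2. Without 8AF the comparison gave a median of 0.66, with 0.82 for C1qc (adjusted p = 0.0628 from limma) and 1.11 for Lyz2 (adjusted p = 0.0776). With the seminal vesicle level as a covariate the median was 1.33. The WT libraries and 8AF had almost no seminal vesicle RNA, so that fit rests mostly on 8AF and is not separate from the comparison of 8AF alone. The median thus had the same direction in the libraries with and without seminal vesicle RNA, and was larger in the library without it.

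In KO at 30 weeks 7 of the 10 genes had a higher mean log2 level than in WT, with a median log2 fold change of 0.289 beside -0.0067 over all 14729 genes tested. None passed an adjusted p under 0.05 in limma (smallest 0.425), and 0% of all genes did. At an unadjusted p under 0.05 there was 1 gene of 10 higher, C1qb, and 0 lower, where 5.56% of all genes were higher and 5.41% lower. In 2 of 10, C1qb and C1qc, every KO library lay above every WT library, as 7.92% of all genes did, and 8.41% lay below. C1qb had 117, 209 and 165 normalised counts in KO libraries 4AF, 5AF and 6AF and 108, 99.1 and 106 in WT, 1.52-fold (log2 0.61, SE 0.219, adjusted p = 0.425 from limma). C1qc had 106, 205 and 130 against 80.4, 100 and 105, 1.49-fold. The lowest KO library barely exceeded the highest WT library for either gene. C1qa had 141, 241 and 176 against 150, 126 and 122, and so overlapped (1.38-fold).

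Library 5AF, the KO library without seminal vesicle RNA, was the highest of the KO libraries for 9 of the 10 genes. Lyz2 had 299, 864 and 408 normalised counts against 163, 349 and 283 in WT (1.87-fold, log2 0.90, SE 0.432), and Cd68 11.1, 63.1 and 40.7 against 26.5, 44.9 and 40.6 (0.85-fold, log2 -0.23, SE 0.607). For Cd68 the KO libraries thus lay on both sides of WT, and library 4AF held only 9 of its reads. The median log2 fold change of the 10 genes was 0.11 without 5AF and 0.82 for 5AF alone against WT, so that the KO median was largely that of 1 mouse. Mertk was again lower, at 336, 297 and 347 against 342, 445 and 433 (0.808-fold, log2 -0.31, SE 0.139, adjusted p = 0.469 from limma). The surface receptors were at 0.994-fold (Mrc1, SE 0.266 on the log2 scale), 1.08-fold (Adgre1, SE 0.256), 1.09-fold (Cd163, SE 0.254) and 1.39-fold (Csf1r, SE 0.312), and all 4 overlapped.

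At 10 weeks the macrophage genes of A537T lay on both sides of WT, with a median log2 fold change of 0.0436 beside 0.0106 over all 15131 genes tested. None passed an adjusted p under 0.05 in limma (smallest 0.746), and 0% of all genes did. At an unadjusted p under 0.05 there were 0 of 10 in either direction, where 2.76% of all genes were higher and 3.67% lower. Cd163 alone had every A537T library above every WT library, as 5.58% of all genes did, and 6.34% lay below. It had 139, 160 and 146 normalised counts in A537T libraries 16AF, 17AF and 18AF and 136, 73.5 and 107 in WT libraries 10AF, 11AF and 12AF, 1.45-fold (log2 0.53, SE 0.242). C1qa had 176, 146 and 187 against 157, 151 and 148 (1.11-fold), and Lyz2 355, 414 and 471 against 378, 323 and 488 (1.05-fold). Both groups overlapped for these genes and for the other C1q chains, whose log2 fold changes were -0.08 (SE 0.174) for C1qb and 0.01 (SE 0.173) for C1qc.

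In KO at 10 weeks 8 of the 10 genes had a lower mean log2 level than in WT, with a median log2 fold change of -0.284 beside -0.00613 over all 15089 genes tested. None passed an adjusted p under 0.05 in limma (smallest 0.241), and 0% of all genes did. At an unadjusted p under 0.05 there was 1 of 10 lower, Csf1r, and 0 higher, where 11.5% of all genes were lower and 7.97% higher. In 4 of 10 (Csf1r, Lyz2, C1qc and Cd68) every KO library lay below every WT library, as 14.3% of all genes did, and 11.7% lay above. Csf1r had 195, 105 and 213 normalised counts in KO libraries 13AF, 14AF and 15AF and 260, 242 and 553 in WT libraries 10AF, 11AF and 12AF, 0.503-fold (log2 -0.99, SE 0.394, adjusted p = 0.241 from limma). The WT library 12AF, which had the most skeletal muscle RNA (58800 CPM), was far above the others for this gene. Lyz2 had 287, 283 and 296 against 356, 310 and 466 (0.777-fold), and C1qc 118, 118 and 105 against 142, 123 and 146 (0.832-fold).

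The sizes of these values depend on a scaling that moved all genes alike. When each library was scaled to the same total, all genes moved up by a median of 0.20 on the log2 scale and the median of the 10 macrophage genes was -0.07. When the muscle and seminal vesicle genes were also left out of the total, the 2 medians were 0.25 and -0.02. The macrophage genes thus stayed below the median of all genes by about the same amount under each scaling. C1qc then had log2 fold changes of -0.05 and -0.00159 under the 2 scalings, against -0.26 (SE 0.151) by normalised counts, and Csf1r -0.78 and -0.73. In CPM, which includes the same shift of all genes, the WT libraries of C1qc ranged from 13.8 to 17.4 and the KO libraries reached 15.8.

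The change of the genotype difference between the ages was tested in 1 limma model over the tables of a line. No gene passed an adjusted p under 0.05 in KO or A537T (0% of 14295 and of 14292 genes). At an unadjusted p under 0.05 there were 4 of 10 macrophage genes in KO (C1qb, C1qc, Csf1r and Lyz2) and 5 of 10 in A537T (these and C1qa), all with a more positive difference at 30 weeks, where 12.1% of all genes passed in KO and 12.1% in A537T, in either direction. For C1qb the log2 fold change was higher at 30 than at 10 weeks by 0.91 (SE 0.273, adjusted p = 0.298) in KO and by 1.09 (SE 0.374, adjusted p = 0.289) in A537T. For Csf1r the differences were 1.47 (SE 0.551, adjusted p = 0.342) and 1.39 (SE 0.557, adjusted p = 0.357). Both lines share the WT library 12AF of 10 weeks, which was far above the other WT libraries of that age for Csf1r. When 1 library was left out, the log2 fold change of Csf1r at 10 weeks ranged from -1.21 to -0.61 in KO. In A537T it was -0.55 (SE 0.41) with all libraries and ranged from -0.8 to -0.18. Mertk went the other way in both lines, at -0.28 (SE 0.22) and -0.69 (SE 0.36), and Adgre1 in KO at -0.19 (SE 0.344). The KO and A537T lines were compared with the same WT libraries, so their values are not independent.

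Within the groups the macrophage genes varied together. After subtraction of group means, each gene was correlated with the mean standardised level of the 10 over the 18 libraries, as a description, since the libraries share tissue and depth. Pearson's r was 0.982 for C1qc, 0.948 for C1qb, 0.929 for Mrc1, 0.895 for Lyz2 and 0.892 for C1qa, and lower for Adgre1 (0.838), Cd68 (0.801), Mertk (0.631), Cd163 (0.628) and Csf1r (0.496). Each gene is itself part of that mean. Per length, C1qc was at 0.581 ± 0.0744 of C1qb (SD, n = 18) and never below 0.418 or above 0.694, while C1qb itself ranged from 9.73 to 37.3. The scavenger receptor Cd163 had no such fixed ratio. It was at 0.251 ± 0.0327 of C1qb in A537T and 0.160 ± 0.0398 in WT at 10 weeks, and at 0.0831 ± 0.0419 and 0.106 ± 0.0222 at 30 weeks (SD, n = 3). Mrc1 per C1qb was likewise 0.470 ± 0.0582 and 0.366 ± 0.0412 at 10 weeks and 0.273 ± 0.0531 and 0.357 ± 0.106 at 30 weeks. In KO the ratios were 0.165 ± 0.0104 (Cd163) and 0.358 ± 0.0474 (Mrc1) at 10 weeks and 0.0750 ± 0.00605 and 0.226 ± 0.0243 at 30 weeks. In both A537T and KO each ratio was thus higher at 10 than at 30 weeks, with no overlap between the ages. The WT means were also higher at 10 weeks, but the ages overlapped. For Cd163 WT had 0.126 to 0.204 at 10 and 0.0922 to 0.132 at 30 weeks, and for Mrc1 0.330 to 0.411 and 0.259 to 0.470. The ages also differed in muscle and adipocyte RNA, and the part of this was not tested.

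Among 15496 genes with a mean of at least 1 CPM, the 10 genes outside the markers that followed them most closely over the 18 libraries by the same within-group measure were Cilp (r = 0.936), Rp2 (0.935), Dst (0.924), Krt19 (0.924), Rnf213 (0.919), Tgfb2 (0.918), F13a1 (0.914), Aurkaip1 (0.912), Lmbr1 (0.912) and Folr2 (0.907). F13a1 and Folr2 are themselves genes of tissue macrophages, and Krt19 is a keratin of epithelium. All 18 libraries enter each r, and 5AF and 8AF are the extremes of their groups.

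The wider macrophage programme was described with 10 lists of 107 genes in all. In A537T at 30 weeks 91 of the 107 genes could be tested, their median log2 fold change was 0.57, and 37 were higher and 3 lower at an unadjusted p under 0.05, beside 7.35% and 6.28% of all genes. None passed the adjusted p (smallest 0.164 in limma). In KO at 30 weeks 88 could be tested, with a median of 0.30, 20 higher and 0 lower, beside 5.56% and 5.41% of all genes. The filter takes in the mutant libraries, so genes that passed it only in A537T lean towards a higher level there. In KO at 10 weeks the median was -0.07, with 8 higher and 13 lower of 85, near the 7.97% and 11.5% of all genes. In A537T at 10 weeks it was 0.05, with 6 higher and 2 lower of 86, beside 2.76% and 3.67% of all genes. Of the genes named from these lists, DESeq2 called 7 in A537T at 30 weeks, where it called 3.19% of all genes. Their adjusted p-values from DESeq2 were 0.00124 for Ccr2, 0.00219 for Ptgs2, 0.00714 for Sirpa, 0.0152 for Ctss, 0.0249 for Ms4a6c and 0.0461 for Lpl, all with a higher level, and 0.049 for Ctsd, with a lower one. Ptgs2 and Lpl exceeded WT only in the libraries with seminal vesicle RNA. Sirpa was also higher in those libraries (399 and 457 normalised counts) than in 8AF (273). Ms4a6c passed the filter at 30 weeks only through the mutant libraries.

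Phagocyte genes were the longest list. Of 25, 22 could be tested in A537T at 30 weeks, and all 22 had a log2 fold change above 0, with a median of 0.834 and 13 higher at an unadjusted p under 0.05 (7.35% of all genes). In 16 of the 22 every A537T library lay above every WT library (9.18% of all genes). In KO at that age, with the same WT libraries, 19 could be tested. Some of the 22 thus passed the filter only through their A537T values, which favours a fold change above 0. Ctss, a protease of antigen processing, had 233, 222 and 194 normalised counts in 7AF, 8AF and 9AF and 107, 136 and 139 in WT (1.7-fold, log2 0.77, SE 0.155, adjusted p = 0.214 from limma). Ctss in 8AF thus lay between the A537T libraries with seminal vesicle RNA. Sirpa, the receptor for the CD47 signal, had 399, 273 and 457 against 133, 173 and 225 (2.12-fold), and Lcp1, an actin-bundling protein, 1109, 1282 and 1170 against 1222, 958 and 1061 (1.1-fold). Among the KO libraries of 30 weeks 7 of 19 phagocyte genes lay above WT without overlap and 0 below (7.92% and 8.41% of all genes), with a median of 0.499.

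Monocytes are the blood cells that give rise to many tissue macrophages. Among the 10 macrophage-related lists their genes had the highest median in A537T at 30 weeks, 1.88 over the 4 of 7 genes that could be tested. In each other comparison 3 could be tested. Ly6c2 had 0 to 0.246 CPM in WT and 2.18 to 3.77 in A537T at 30 weeks, and so passed the filter only through the A537T libraries. The median lay between the values of Plac8 (1.85) and Ms4a6c (1.91). Ccr2, the chemokine receptor of inflammatory monocytes, had 102, 118 and 70.1 normalised counts in A537T and 28.1, 36.7 and 36.6 in WT, 2.77-fold (log2 1.47, SE 0.251, adjusted p = 0.164 from limma), the smallest adjusted p of the 107 genes. Ms4a6c had 28.1, 31.8 and 29.6 against 8.82, 10.3 and 3.96 (3.76-fold, log2 1.91, SE 0.426). Ccr2 and Ms4a6c were above every WT library in each A537T library, and in KO at 30 weeks as well, at 1.96-fold for Ccr2 and 2.22-fold for Ms4a6c. The WT mean of Ms4a6c was 7.70 in the A537T comparison and 7.07 in the KO comparison, under the minimum of 10. At 30 weeks it thus passed the filter only through the mutant libraries, which favours a fold change above 0. Plac8, which epithelium also expresses, was at 226, 54.0 and 279 against 9.62, 115 and 60.4, so that only the libraries with seminal vesicle RNA exceeded WT. At 10 weeks the median of the monocyte genes was 0.0655 in KO and 0.289 in A537T.

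Genes of resident-type macrophages had a median of 0.909 in A537T at 30 weeks over 6 of 8 genes. F13a1 had 206, 308 and 151 normalised counts against 118, 138 and 153 (1.56-fold), and Pf4 17.1, 31.8 and 21.9 against 6.42, 13.8 and 20.8 (1.79-fold), and both overlapped. Cbr2 took 87% of the summed level of this list, and at 226 RPKM it lay above every macrophage gene, with 3131, 5580 and 2095 against 3994, 2613 and 3183 (1.03-fold). In KO at 10 weeks 4 of the 6 were lower at an unadjusted p under 0.05 (11.5% of all genes), with a median of -0.626, among them F13a1 (0.736-fold) and Pf4 (0.571-fold). The KO libraries of that age also differed from WT in muscle, adipocyte and secretory RNA, and the part of this difference was not tested.

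The genes through which Csf1r and related receptors signal had a median of 0.652 in A537T at 30 weeks, with all 9 above 0 and 5 above WT without overlap (9.18% of all genes). In KO at 30 weeks the median was 0.69, with 8 of 9 above 0 and 4 above WT without overlap (7.92% of all genes). The adaptor Tyrobp had 70.3, 82.9 and 46.0 normalised counts against 36.1, 34.4 and 28.7 (1.93-fold, log2 0.95, SE 0.269), and the adaptor Fcer1g 53.2, 89.7 and 35.1 against 22.5, 39.0 and 20.8 (2.05-fold). The phospholipase Plcg2 was at 140, 101 and 160 against 60.2, 86.0 and 85.1 (1.72-fold). Of the transcription factors of macrophages 9 of 11 could be tested, with a median of 0.774 in A537T at 30 weeks and 5 above WT without overlap (9.18% of all genes). In KO at 30 weeks the median was 0.266, with 2 of 10 above WT without overlap (7.92% of all genes). Zeb2 had 493, 456 and 611 against 208, 377 and 349 (1.71-fold), and Maf 261, 327 and 240 against 156, 236 and 176 (1.47-fold). Cebpa was at 101, 26.0 and 112 against 20.9, 36.7 and 26.7, so that 8AF lay within the WT range, whereas all 3 KO libraries of 30 weeks lay above WT (2.35-fold, log2 1.23, SE 0.287).

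The genes of uptake were described next. Of 10 tested genes for the uptake of apoptotic cells 5 lay above WT without overlap in A537T at 30 weeks (median 0.364), as 9.18% of all genes did. Axl, a receptor kinase related to Mertk, had 568, 761 and 586 normalised counts against 402, 476 and 505 (1.38-fold, log2 0.46, SE 0.152), and so stood above WT where Mertk stood below it. Their bridging ligand Gas6 was at 588, 614 and 607 against 467, 838 and 707 (0.925-fold), and Lrp1 at 3050, 3169 and 2803 against 2306, 2599 and 2599 (1.2-fold). Of 8 tested scavenger receptor and iron recycling genes (median 0.336) 1 lay above WT without overlap, near the 9.18% of all genes. This was Stab1, with 266, 385 and 243 against 126, 228 and 237 (1.54-fold). Cd36 had 320, 168 and 365 against 105, 214 and 161, and Blvrb 84.4, 90.6 and 76.7 against 67.4, 91.8 and 66.3.

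The remaining lists were mixed. Lysosomal genes had a median of -0.0245 over 14 genes in A537T at 30 weeks, with 1 above WT and 3 below without overlap (9.18% and 9.4% of all genes). Ctsd had 3529, 3291 and 3158 normalised counts against 3892, 4815 and 4694 (0.747-fold, log2 -0.42, SE 0.116), Lamp1 was at 0.883-fold and Psap at 1.05-fold. At 103 to 207 RPKM these 3 genes stood far above the macrophage genes, and they are used by nearly every cell type. Genes of lipid-associated macrophages had a median of 0.152 over 7 genes with 0 of 7 free of overlap with WT, and Cd9 (974, 448 and 1199 against 379, 515 and 446), Lpl (615, 199 and 798 against 82.6, 247 and 207) and Lgals3 (76.3, 70.4 and 98.6 against 48.9, 84.9 and 67.3) overlapped. Of the activation genes 4 of 9 could be tested. Arg1, an arginine-degrading enzyme, was below WT in each library, with 15.1, 11.6 and 7.67 against 25.7, 36.7 and 27.7 (0.393-fold, adjusted p = 0.272 from limma), the reverse of Retnla, which had 153, 119 and 136 against 87.4, 118 and 114 (1.28-fold). Ptgs2 had 1160, 10.6 and 1572 against 12.0, 8.03 and 17.8, so that it too exceeded WT only with seminal vesicle RNA. Nos2, Il1b, Tnf, Il6 and Il10 were below 10 normalised counts on average and were not tested.

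**Figure D3:**
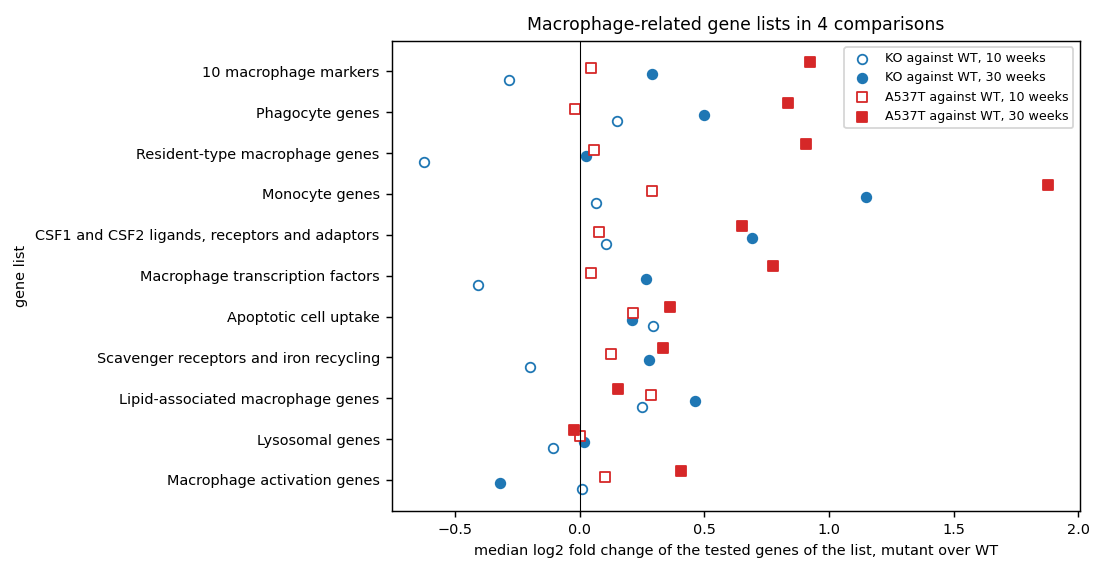
Median log2 fold change (x axis) of the tested genes of the macrophage markers and of 10 related lists (y axis) in the 4 comparisons; circles are KO, squares A537T, open symbols 10 weeks and filled symbols 30 weeks. In A537T at 30 weeks the monocyte genes (1.88), the macrophage markers (0.923) and the resident-type genes (0.909) are farthest to the right, and the lysosomal genes lie at -0.0245. Among the monocyte genes, Ly6c2 passed the filter on low values only in that comparison, and Ms4a6c passed it at 30 weeks only through the mutant libraries.

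Markers of other immune cells were checked beside the macrophage genes. Ptprc, which encodes the leukocyte antigen CD45, was at 26.6, 33.9 and 19.8 CPM in A537T and 22.5, 30.6 and 21.6 in KO against 12.0, 11.3 and 14.2 in WT at 30 weeks. It thus stood above WT in all 6 mutant libraries. Of the 6 leukocyte genes 5 lay above WT without overlap in A537T at 30 weeks (9.18% of all genes). The median log2 fold change of the 6 was 1.30, beside 0.923 for the macrophage genes. In KO at that age 4 lay above and 1 below (7.92% and 8.41% of all genes). The KO median was 1.03, beside 0.289 for the macrophage genes. The sum of the 6 leukocyte genes is not usable as a measure of leukocytes here, since Cd52 took 86.6% of it and was at 415 to 704 CPM in the libraries with seminal vesicle RNA and at 5.59 and 7.84 in 8AF and 5AF. Plasma cell genes at 30 weeks summed to between 418 and 1260 CPM in A537T, between 281 and 300 in KO and between 270 and 285 in WT, and were highest in 8AF, as the C1q genes were. In A537T 7 of the 9 could be tested, with a median log2 fold change of 2.16. Of these 5 lay above WT without overlap (9.18% of all genes). In KO the median was 0.0561 over 6 genes, with 0 above. Xbp1 took 49.2% of the summed level of this list. The part of the plasma cell genes in the macrophage result was not tested. T cell genes were scarce (9 of 10 below a mean of 1 CPM; sum 7.79 to 10.7 in A537T, 6.51 to 8.55 in KO and 3.15 to 6.43 in WT at 30 weeks), as were B cell genes (8 of 8 below 1; 5.38 to 8.56, 6.72 to 15.8 and 1.99 to 4.72) and NK cell genes (6 of 6 below 1; 2.11 to 3.08, 1.68 to 4.10 and 1.48 to 2.49). The neutrophil markers Ly6g, Camp and Ngp were at 0 in all 18 libraries, and the neutrophil list summed to at most 3.88. Dendritic cell genes summed to 12.1 to 19.5 in A537T, 12.0 to 14.5 in KO and 10.1 to 13.1 in WT at 30 weeks, and mast cell genes to 7.53 to 20.7, 4.72 to 30.5 and 4.76 to 11.8. In bulk tissue more macrophages and more RNA of these genes per macrophage cannot be told apart.

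**Figure D4:**
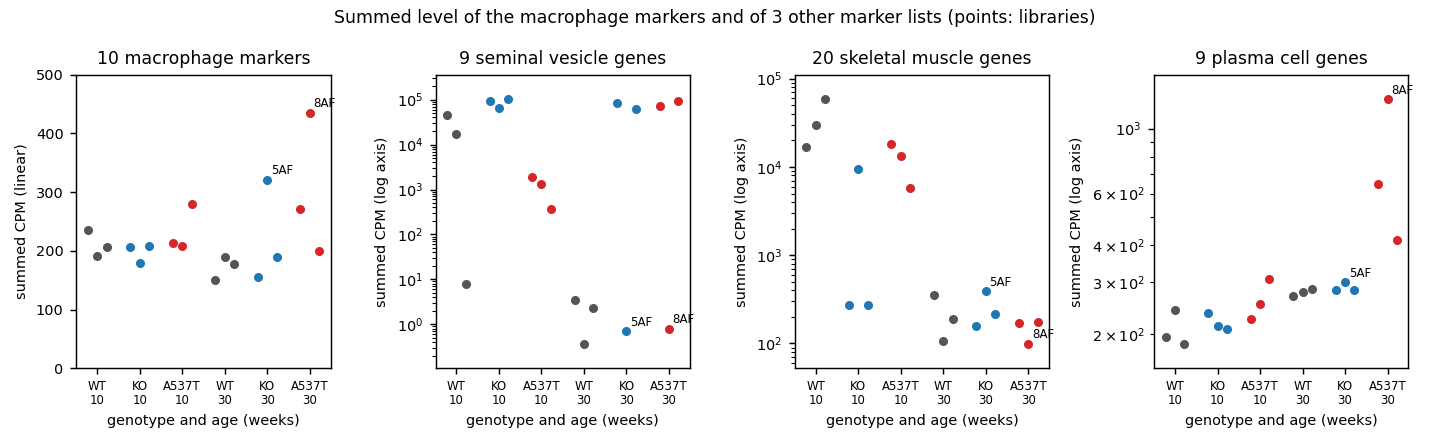
Summed CPM (y axis) of the 10 macrophage markers (linear axis from 0) and of 3 lists of other cell types (log axes) in the 18 libraries (points) of the 6 groups; the labelled points are KO library 5AF and A537T library 8AF. The macrophage sum is highest in 8AF (435) and 5AF (321), which hold almost no seminal vesicle RNA, and the plasma cell sum is highest in 8AF (1260).

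Stromal genes were summed in the same way at 30 weeks. The fibroblast sum was 843 to 893 CPM in A537T, 685 to 693 in KO and 525 to 771 in WT, and the endothelial sum 47.8 to 75.6, 41.5 to 66.7 and 31.8 to 67.9. Adipocyte genes varied from 7.38 to 522 among the 9 libraries and were at 8.44 in 8AF, the library with the most macrophage RNA. The smooth muscle sum was 1930 to 3700 in A537T, 2350 to 3570 in KO and 2010 to 2610 in WT. Basal epithelial genes were at 74.2 to 84.2, 70.0 to 102 and 51.5 to 76.7, and lymphatic endothelial genes at 46.6 to 55.5, 33.7 to 45.3 and 22.1 to 49.5. Genes of ventral and lateral prostate secretion were at 44400 to 147000, 48100 to 141000 and 76000 to 147000. None of these sums was tested against the macrophage genes.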

How the data were processed

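The 10 genes and all gene lists were chosen with earlier results of these data known. The deposited values are a signal: per the authors' methods, gene counts after division by size factors from DESeq2 1.26, in 4 tables of 6 libraries. The authors trimmed reads with Trim Galore 0.4.1 and cutadapt 1.18, aligned with STAR 2.7.3a to GRCm38.p6 with nuclear mitochondrial copies masked, and quantified with Salmon in strand-aware mode (version not given in the sources used here). The authors' tables of fold changes and s-values were not used. Library columns carry no genotype: those shared by both tables of an age were taken as WT, the others as the line naming the table.

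Within each table log2(normalised count + 1) was fitted with limma 3.58.1 (mean trend, genes with a mean of at least 10, Benjamini-Hochberg over all genes), a scale that understates changes of low genes. Reads were recovered from the steps of the values (at least 99.99% whole within 0.1) for CPM, for edgeR 4.0.16 and for DESeq2 1.42.0. Totals of recovered reads give the depth. WT reads of a gene can differ between the tables of an age (Csf1r by -8.49% at most), so WT levels are means of both. Named were the 10 genes, the 3 tested genes of each pathway list with the highest RPKM, and the 10 genes most alike. The labels do not say whether libraries came from separate extractions. The p-values measure the spread between these libraries, which includes their uneven RNA of neighbouring tissues. Alternatives were other filters, pseudocounts, scalings, tools and covariates, and each library left out. The limma step was tested on simulated data.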

Additional observations from a re-analysis of the deposited data

Results flagged for a closer look

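C1qc in KO was marked because the groups separated in opposite directions at the 2 ages. All KO libraries lay below all WT libraries at 10 weeks (105 to 118 against 123 to 146 normalised counts) and above them at 30 weeks (106 to 205 against 80.4 to 105). The difference of the log2 fold changes, 30 minus 10 weeks, was 0.84 (SE 0.309, adjusted p = 0.335 from limma), so it missed the threshold. At 10 weeks the highest KO library (15.8) lies within the WT range (13.8 to 17.4) in CPM, a scaling that moves all genes of that comparison up by a median of 0.20 (log2). None of the other 9 genes separated in both directions in either line.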

How the results depend on the processing

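The 4 comparisons and both age differences, with 0 genes passing the adjusted p in limma, were recomputed under each alternative, and the cause of a change was not tested unless stated. No paired analysis was possible because the columns carry no replicate number. At 10 weeks DESeq2 found 715 genes for KO and 90 for A537T, and at 30 weeks 285 and 472, while edgeR called 0 in each (2806, 1100, 1752 and 2167 at an unadjusted p under 0.05). A minimum mean of 1 and no mean trend each called 2 genes in A537T at 10 weeks, no mean trend called 1 in KO at 10 weeks, and in A537T at 30 weeks the seminal vesicle covariate called 3. The fit without libraries with seminal vesicle RNA, an alternative chosen after seeing the data, called 1 there. Leaving out 1 library at 10 weeks gave 0 to 2886 genes for KO and 0 to 50 for A537T, both highest without 10AF (KO had 185 without 14AF), 0 to 944 in KO (highest without 5AF) and 0 to 1224 in A537T (highest without 8AF) at 30 weeks, 0 to 30 for the age difference of KO (highest without 14AF) and 0 to 390 for that of A537T (highest without 8AF).

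The median log2 fold change of the 10 genes in KO at 10 weeks moved to -0.07 with equal totals and -0.02 with equal totals free of muscle and seminal vesicle genes, scalings that moved the median of all genes to 0.20 and 0.25. At 30 weeks it moved to 0.79 in KO and 1.33 in A537T with the covariate and to 0.82 and 1.37 without the seminal vesicle libraries.

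Among the alternative values for the 10 genes 604 kept direction and side of the threshold, 41 turned and 5 newly passed, and for the other named genes 480 kept both, 7 turned and 14 newly passed. In KO at 10 weeks Cd163 turned to 0.02 and 0.07 under the equal totals, Mertk to 0.18 and 0.24 under them, 0.06 with quantiles and 0.21 with the muscle covariate, and C1qa to -0.03 with that covariate. In A537T at 10 weeks the muscle covariate gave Adgre1 -0.39, C1qc -0.13 and Mertk -0.08, edgeR gave Mertk -0.00301, and equal totals gave C1qb 0.06. In KO at 30 weeks Cd68 turned to 0.06 (DESeq2), 0.08 (edgeR), 0.77 (covariate) and 0.78 (without seminal vesicle libraries), and Mrc1 to 0.02, 0.03, 0.48 and 0.47 in the same order and 0.06 with the reduced totals. In A537T at 30 weeks quantiles gave Cd68 -0.03, the covariate gave Psap -0.01, and leaving out the seminal vesicle libraries gave Psap -0.01, Mertk 0.0011, Cebpa -0.07 and Ptgs2 -0.17.

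Ranges that crossed 0 when 1 library was left out were, in KO at 10 weeks, -0.42 to 0.01 for Cd163, -0.15 to 0.07 for Mertk and -0.03 to 0.08 for C1qa. In A537T at 10 weeks they were -0.1 to 0.09 for Mertk and for C1qc and -0.06 to 0.23 for Lyz2. In KO at 30 weeks they were -0.03 to 0.35 for Adgre1, -0.06 to 0.29 for Cd163, -0.74 to 0.47 for Cd68 and -0.25 to 0.17 for Mrc1. In A537T at 30 weeks they were -0.06 to 0.31 for Cd68, -0.33 to 0.38 for Cbr2 and -0.35 to 0.07 for Gas6. Low counts limit the precision of single libraries, such as the 9 reads of Cd68 in 4AF.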
